A study of Homo sapiens with 4 samples.

Results

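The genes described here are UHRF1 and the enzymes that write, keep or remove DNA methylation, measured in LNCaP cells that had received 50 nM of miR-31, a microRNA, or of its control miR-NC 48 h earlier. The members are 9 genes taken by function: UHRF1, UHRF2, DNMT1 and HELLS for maintenance, DNMT3A and DNMT3B for de novo methylation, and TET1, TET2 and TET3 for demethylation. UHRF1 was picked on its own fall in this comparison, so its values are given as a description with no test. The other genes were added for their function, but with earlier results of these data known. Their p-values may therefore be affected by that choice. The platform annotation gave 18 probes to 8 of the 9 genes, out of 47231 probes and 20046 named genes on the array, and gave no probe to TET3. Of the 18 probes, 9 passed the filter on dim probes, for 6 of the genes: 1 UHRF1 probe and 8 tested probes of 5 other members. LNCaP is a human prostate cancer line that keeps luminal secretory genes. Both groups are the same line, grown in RPMI 1640 with 10% fetal bovine serum and transfected in the same way, with 2 Illumina bead arrays each. Nothing in the labels says whether the repeats are separate cultures, and each p-value reads the spread between these arrays alone, which may be technical. Transient transfection of 1 line is the model here, and the files hold RNA only, so DNA methylation itself was not measured.

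When DNA is replicated, the new strand carries no methyl groups and each methylated CpG becomes hemimethylated. UHRF1 binds hemimethylated CpG, ubiquitinates histone H3 and so brings in DNMT1, the methyltransferase that copies the mark, while HELLS is a chromatin remodeller that opens nucleosomal DNA to these enzymes. DNMT3A and DNMT3B add methyl groups to unmethylated sites, and the TET dioxygenases oxidise 5-methylcytosine as the first step of its removal. UHRF1 and DNMT1 are most abundant in cycling cells, and UHRF1 is often overexpressed in cancers, prostate cancer among them.

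The transfected microRNA is shown first because it is the only difference between the groups that the labels give. The labels do not name the arm; RefSeq (GRCh38.p14) lists 1 mature miR-31, the 5p arm, on the minus strand of chromosome 9 at chr9:21512158-21512178. It is printed with its seed, bases 2 to 8, in capitals.
hsa-miR-31-5p: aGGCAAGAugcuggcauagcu

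The promoters of UHRF1, DNMT1 and HELLS are shown because these are the 3 members with an E2F-type word near a start site. E2F factors switch on genes of S phase. The words searched were TTTCCCGC, TTTGGCGC, TTTCGCGC and TTTGCCGC on both strands, in RefSeq windows from 250 bases before to 50 bases after each listed start (GRCh38.p14). Each stretch runs from 100 bases before to 20 bases after the start, and capitals mark the matches, which can lie on either strand. UHRF1 is on the plus strand of chromosome 19 (stretch chr19:4909401-4909520), DNMT1 on the minus strand of the same chromosome (chr19:10194934-10195053) and HELLS on the plus strand of chromosome 10 (chr10:94545688-94545807).
UHRF1: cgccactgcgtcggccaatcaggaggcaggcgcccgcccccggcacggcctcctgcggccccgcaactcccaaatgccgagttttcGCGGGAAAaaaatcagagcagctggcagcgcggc
DNMT1: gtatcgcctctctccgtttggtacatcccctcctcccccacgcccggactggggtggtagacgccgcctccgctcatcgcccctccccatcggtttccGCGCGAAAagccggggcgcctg
HELLS: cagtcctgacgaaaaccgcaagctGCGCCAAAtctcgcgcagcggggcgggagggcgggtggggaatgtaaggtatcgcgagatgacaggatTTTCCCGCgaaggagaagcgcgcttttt
In this build UHRF1 spans chr19:4903080-4962154, so the start shown lies inside the gene's outer limits, while those of DNMT1 (chr19:10133346-10194953) and HELLS (chr10:94545788-94613905) are at the gene's 5′ end. The match in UHRF1 begins at base -14, that in DNMT1 at base -2, and those in HELLS at bases -76 and -8. A second UHRF1 window, for another start, has a match at base -160. All 9 members had at least 1 window, and 3 of the 9 held a match in any of them. Of all genes with a window, 3.99% held one (1090 of 27305), though genes differ in how many windows they have. By window, 4 of 20 member windows held a match, against 3.31% of all 35116 windows. Of the tested genes that the promoter table covers, 6.62% held a match (580 of 8761), against 12.7% of those that were lower in miR-31 (59 of 463). The members were not taken out of these counts. The difference was not tested, and no share was computed for genes higher in miR-31. A match is a description of letters only, and its absence from a window says nothing about E2F binding.

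Between 34.6% and 40.7% of probes were detected per array (detection p under 0.05), with median intensities of 74.6 to 92.5 before normalization. Precision is limited by the number of arrays. Of 8 luminal prostate markers measured, 7 were detected on all 4 arrays, among them KLK3, HOXB13 and FOLH1; KRT18 was detected on 1 array. Of the 7 tested, 2 were lower in miR-31, 0 higher and 5 did not pass (limma), against 5.24% lower and 2.43% higher over all genes. The lower ones were ACP3, a secreted phosphatase (log2 change -1.54, limma adjusted p = 0.00192), and TMPRSS2, a membrane protease (-0.72, adjusted p = 0.0191). Before normalization the luminal markers summed to 18663 and 11402 with the control, against 7308 and 10144 with miR-31. The median intensity of all probes was also higher with the control, at 92.5 and 86.4 against 82.5 and 74.6. Of 12 measured basal, stromal, endothelial and leukocyte markers, 7 were detected on no array, KRT5, KRT14, PECAM1 and CDH5 among them, and 2 (VWF and CD68) on all 4. The summed intensity of these 12, also before normalization, was 2305 and 1915 with the control and 1168 and 1201 with miR-31. Without VWF, which read 1070 and 852 in miR-NC against 204 and 215 in miR-31, the sum was 1235 and 1063 against 963 and 986. Apart from CD68, that sum came from markers not detected on all 4 arrays. After normalization VWF stood at -2.20 and CD68 at -0.004 (limma adjusted p = 0.00153 and 0.996), with a second CD68 probe at 0.40. The part of either marker list in the results below was not tested.

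UHRF1 was the member with the largest difference between the groups. Its bright probe, ILMN_1786065, annotated to transcript NM_001048201, had raw intensities of 820 and 605 with the control microRNA, against 127 and 142 with miR-31. The groups lay far apart, and both miR-31 arrays still detected the transcript, close to the lowest detected intensities of those arrays (97.2 and 82.6). After background correction and quantile normalization the mean log2 intensity was 9.21 ± 0.02 with the control and 6.49 ± 0.10 with miR-31 (SD, n = 2 each). The difference, miR-31 minus miR-NC, was -2.72 ± 0.21 (SE) on the log2 scale, a 6.57-fold lower signal. Of the 10754 genes tested, 1 had a more negative value (MCM2, a subunit of the replicative helicase, singled out after its value was seen). The log2 difference was -2.04 with no background correction and -2.33 with an offset of 50. It was -2.81 with the authors' normalized values, which differ in more than 1 step. Leaving out any 1 array gave values between -2.78 and -2.65. The other UHRF1 probe, ILMN_2401352, annotated to NM_013282, was not detected on any array (intensities of 45.9 to 50.0, detection p 0.834 to 0.918), so it gave no reading of the change.

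DNMT1, the maintenance methyltransferase that UHRF1 recruits, fell. Its 1 probe had the highest intensities of the 18, at 4184 and 2879 with the control and 1478 and 1862 with miR-31. Both miR-31 arrays lay below both miR-NC arrays. The normalized means were 11.63 ± 0.04 and 10.82 ± 0.03 (SD, n = 2 each). The log2 change was thus -0.81, with an SE of 0.13 (limma adjusted p = 0.0112), or a 1.76-fold fall with a 95% interval of 1.42 to 2.17. The size held in every alternative run (log2 changes from -0.89 to -0.78). The call did not: with arrays aligned on their medians the adjusted p was 0.669, without a variance trend 0.0823, and without miR-31 replicate 1 or 2 it was 0.104 and 0.116. No probe on the array passed when miR-31 replicate 1 was left out, and none when replicate 2 was (limma, with 2061 and 1880 genes at an unadjusted p under 0.05), so no call given here could be checked on 1 miR-31 array. In those fits the spread comes from the miR-NC pair, and the lone miR-31 array is assumed to vary like it.

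UHRF2, the close relative of UHRF1 that shares its domains but does not replace it in maintenance, was detected on all 4 arrays. Its raw intensities were 285 and 166 with the control against 138 and 162 with miR-31. All its miR-31 values were below its miR-NC values, but the 2 miR-NC arrays differed from each other by more than the second of them differed from miR-31. The log2 value was -0.42 ± 0.28 (SE), with a 95% interval of -1.06 to 0.22, and its adjusted p of 0.433 (limma) missed the threshold. It was -0.09 without miR-NC replicate 1 and -0.75 without miR-NC replicate 2. The difference between UHRF1 and UHRF2 in their changes was not tested, since UHRF1 was chosen by its value.

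**Figure D1:**
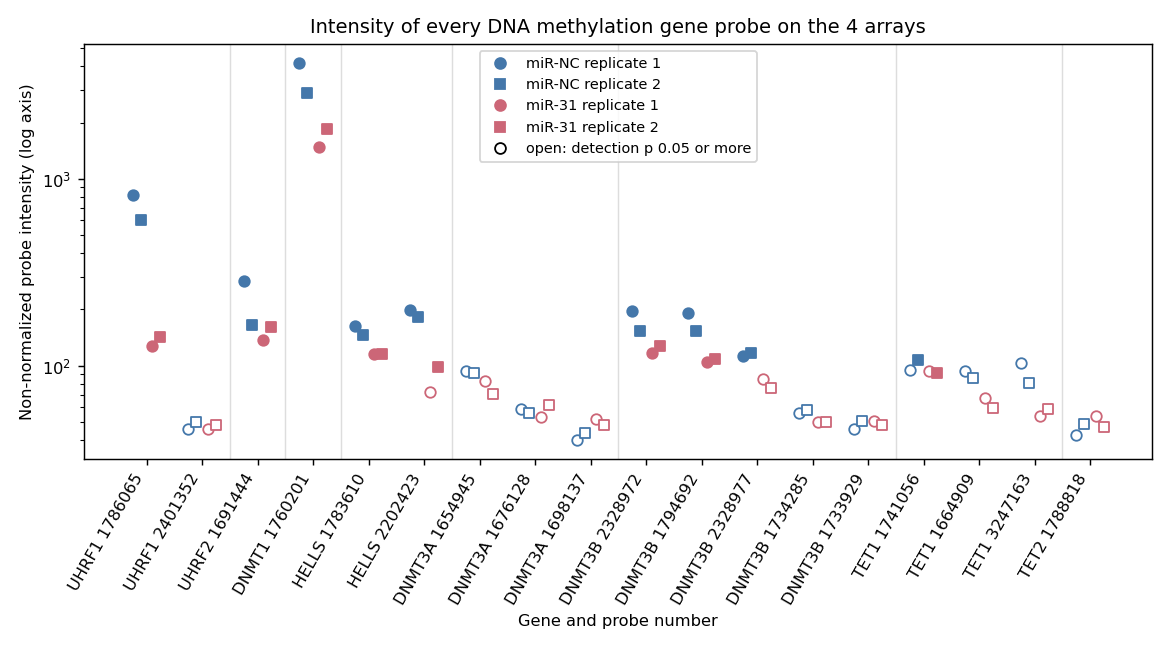
Non-normalized intensity (log axis) of all 18 probes of the DNA methylation genes on the 4 arrays; colour gives the group, shape the replicate number, and open symbols mark detection p of 0.05 or more. The bright UHRF1 probe shows the widest gap between the groups, the DNMT1 probe is the brightest, and the DNMT3A and TET2 probes are open on every array.

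HELLS, the remodeller needed for methylation of nucleosomal DNA, gave a different answer at each of its 2 probes, both annotated to NM_018063. The probe ILMN_1783610 read 164 and 146 with the control, 115 and 115 with miR-31, and was detected on all 4 arrays. Its log2 value was -0.39 ± 0.26 (SE), with a 95% interval of -0.99 to 0.20, and did not pass (limma adjusted p = 0.428). The probe ILMN_2202423 read 199 and 183 with the control but 71.9 and 97.7 with miR-31, where replicate 1 was not above background (detection p 0.482). It fell by 1.66 ± 0.32 on the log2 scale (SE; limma adjusted p = 0.0179), a size that rests in part on that undetected value. At both probes the miR-31 arrays lay below the miR-NC arrays. The first probe stood for the gene only because its mean over all 4 arrays was higher, 6.31 against 6.13, although the second was brighter in miR-NC, at 6.96 against 6.51. With the mean of both probes HELLS fell by 1.03 (adjusted p = 0.0307). Median alignment ended the call of the second probe (adjusted p = 0.0657), and its value was -0.91 with no background correction, -1.10 with an offset of 50 and -2.24 with the authors' values.

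DNMT3B, a de novo methyltransferase, had 5 probes, of which 3 were tested and none passed. ILMN_2328972 read 197 and 154 with the control and 117 and 127 with miR-31, a log2 value of -0.51 ± 0.26 (SE), with a 95% interval of -1.10 to 0.07 (limma adjusted p = 0.280). ILMN_1794692 read 192 and 154 against 104 and 109, a value of -0.86 ± 0.26 (SE; adjusted p = 0.0883). This probe passed with the replicate number as a block (adjusted p = 0.0495). ILMN_2328977 read 113 and 116 with the control and was not detected on either miR-31 array, a signal at least 1.24-fold lower (adjusted p = 0.260). It entered the test only through the miR-NC arrays. All 3 are annotated to NM_006892, and at each of them the miR-31 arrays lay below the miR-NC arrays. The other 2 DNMT3B probes, one of them annotated to NM_175850, were not detected on any array, with intensities of 45.5 to 58.0. DNMT3A, the other de novo enzyme, had 3 probes for 3 transcripts and none was detected on any array: intensities were 40.0 to 94.0 in miR-NC and 48.0 to 83.0 in miR-31, and the lowest detection p was 0.136. Whether DNMT3A changed was therefore not measurable here.

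The TET genes were at or near background. TET1 had 3 probes, and the 1 that was tested, ILMN_1741056, read 94.5 and 107 with the control and 93.8 and 91.3 with miR-31, detected only on replicate 2 of each group. The groups overlapped. Its log2 value was 0.06 ± 0.30 (SE; limma adjusted p = 0.935), with a 95% interval of -0.61 to 0.73. Without miR-NC replicate 1 the sign turned, at -0.20 (adjusted p = 0.892). The other 2 TET1 probes read 81.1 to 104 in miR-NC and 53.9 to 66.7 in miR-31 and were not detected on any array. The 1 TET2 probe read 42.4 and 48.9 in miR-NC against 54.0 and 47.0 in miR-31, with detection p between 0.752 and 0.966.

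**Figure D2:**
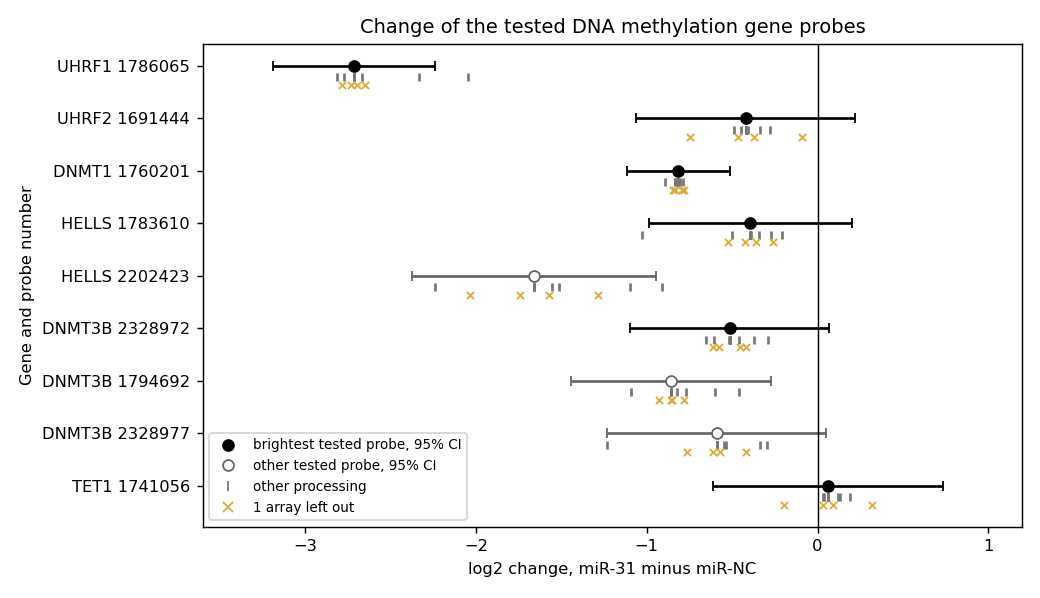
Log2 change, miR-31 minus miR-NC, of the 9 tested probes with 95% intervals from limma; ticks show the value under other processing and crosses the value with 1 array left out. The intervals of DNMT1, the second HELLS probe and the DNMT3B probe ILMN_1794692 lie below 0, those of UHRF2, the first HELLS probe, the other DNMT3B probes and TET1 span it, and UHRF1, shown as a description, stands at -2.72.

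Apart from UHRF1, the probes that passed belonged to DNMT1 and HELLS, both of maintenance. Outside maintenance only DNMT3B and TET1 were tested, and the TET1 probe was detected on 1 array per group. All 3 tested DNMT3B probes had negative values, but ILMN_2328977 entered the test only through the miR-NC arrays, so the filter fixed its direction. The DNMT3B probe ILMN_1794692 stood at -0.86 (SE 0.26) and did not pass, against -0.81 (SE 0.13) for DNMT1. Differences between the classes were not tested. Of the 5 tested members other than UHRF1, 1 was lower (DNMT1), 0 were higher (limma) and 4 did not pass; at an unadjusted p under 0.05 the counts were the same, while 2723 of all 10754 genes lay under that p. Over all genes tested 5.24% were lower and 2.43% higher. At the level of probes, 2 of 8 passed, both lower, against 4.07% of all tested probes. The groups did not overlap in 4 of the 5 genes, but they did not overlap in 55% of all genes either. The 95% intervals of DNMT1, UHRF2, HELLS and DNMT3B overlap one another, and differences between members were not tested.

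CDCA7 and ZBTB24 were the lower genes among the proteins that work with UHRF1, DNMT1 and HELLS in maintenance. Of the 15 tested partners, 4 were lower and 0 higher at a limma unadjusted p under 0.05, against 2723 of all 10754 genes. Past the limma threshold, 2 were lower, 0 higher and 13 did not pass, against 5.24% lower and 2.43% higher over all genes. Their median log2 value was -0.10 against -0.02 over all genes. CDCA7, which recruits and activates HELLS at nucleosomes, fell 3.62-fold, from a mean log2 intensity of 8.90 ± 0.16 to 7.05 ± 0.06 (SD, n = 2; log2 change -1.86 ± 0.21, SE; limma adjusted p = 0.00321). The CDCA7 call was also lost with arrays aligned on their medians. ZBTB24, a transcription factor that activates CDCA7, fell 1.88-fold (-0.91 ± 0.22, SE; adjusted p = 0.0453), a call lost in 8 of 15 alternatives. DNMT3B, ZBTB24, CDCA7 and HELLS are the genes mutated in ICF syndrome, a disorder of lost methylation at pericentromeric repeats. CDCA7L, a relative of CDCA7, stood at -0.64 ± 0.21 (adjusted p = 0.114), and PCNA, the clamp that holds DNMT1 at the replication fork, at -0.35 ± 0.15 (adjusted p = 0.207), with a second probe at 0.47 (adjusted p = 0.543). HDAC1 and CBX5, which act on chromatin with UHRF1 or DNMT1, stood at -0.01 and 0.00.

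Of 12 tested partners of de novo methylation, 4 were lower and 1 higher at a limma unadjusted p under 0.05. Among all 10754 genes, 2723 lay under that p. Past the limma threshold, 1 was lower, 0 higher and 11 did not pass (median 0.01), against 5.24% lower and 2.43% higher over all genes. The lower one was KDM1A, a histone demethylase that stabilises DNMT1 in mouse embryonic stem cells, which fell 1.69-fold (log2 change -0.76 ± 0.18, SE; adjusted p = 0.0396) and lost its call in 7 of 15 alternatives. The link given for KDM1A is to DNMT1, the maintenance enzyme, so the count of 1 does not describe de novo methylation alone. HDAC2 (-0.52), CXXC1 (-0.53) and DAXX (0.53) had the next smallest p-values, with adjusted values of 0.0704, 0.0973 and 0.153. DNMT3L, the cofactor of DNMT3A and DNMT3B, was not tested.

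Of 13 tested demethylation partners, 3 were lower and 1 higher at a limma unadjusted p under 0.05, against 2723 of all 10754 genes. Past the limma threshold, 1 was lower, 0 higher and 12 did not pass (median -0.16), against 5.24% lower and 2.43% higher over all genes. UNG, the uracil glycosylase, fell 3.24-fold, from 10.55 ± 0.13 to 8.85 ± 0.06 (SD, n = 2; log2 change -1.70 ± 0.16, SE; adjusted p = 0.00153). The UNG call was also lost with median alignment. TDG, the glycosylase that removes the oxidised bases made by TET enzymes, stood at 0.22 ± 0.14 (adjusted p = 0.392). GADD45A, a stress-induced protein linked to demethylation, stood at 0.73 ± 0.22 (adjusted p = 0.0814), while its second probe rose by 0.82 ± 0.14 (adjusted p = 0.0134). SMUG1 and APEX1, both of base excision repair, stood at -0.48 and -0.39 (limma adjusted p = 0.111 and 0.139). A second APEX1 probe stood at -0.19 (adjusted p = 0.471).

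None of 10 tested proteins that read methylated CpG passed in either direction (limma), against 5.24% lower and 2.43% higher over all genes. At a limma unadjusted p under 0.05, 1 was lower and 0 higher, and their median was 0.01. SETDB2 (-0.51), ZBTB38 (-0.71), MBD1 (0.36) and MBD2 (0.24) had the smallest p-values, with limma adjusted p from 0.135 to 0.455. A second MBD1 probe stood at 0.63 (adjusted p = 0.158). Among 11 tested genes of methyl donor supply, 4 were lower and 2 higher at a limma unadjusted p under 0.05. Over all 10754 genes, 2723 lay under that p. Past the limma threshold, 2 were lower, 0 higher and 9 did not pass (median -0.28), against 5.24% lower and 2.43% higher over all genes. Without miR-NC replicate 2 the higher count was 2, and at least 1 gene was higher in 5 further alternatives. AHCYL1, a relative of AHCY, the enzyme that clears S-adenosylhomocysteine, fell 3.14-fold (log2 change -1.65 ± 0.15, SE, limma adjusted p = 0.00135). AHCY itself stood at 0.49 ± 0.35 (adjusted p = 0.462), so the fall of AHCYL1 is not a fall of that enzyme. SHMT1, which feeds the folate cycle, fell 1.96-fold (-0.97 ± 0.16; adjusted p = 0.0115), with a second probe at -0.63 (adjusted p = 0.202). Without a variance trend, or with median alignment, the SHMT1 call was lost as well, while that of AHCYL1 held in both. GNMT, a methyltransferase that consumes S-adenosylmethionine, stood at 0.94 ± 0.24 (adjusted p = 0.0523), and MAT2B, the regulatory subunit of the enzyme that makes S-adenosylmethionine, at -0.49 ± 0.14 (adjusted p = 0.0761), with other probes at -0.53 and 0.86.

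Genes whose silencing by DNA methylation is known, mostly cancer-testis genes, gave no call in the upward direction at 48 h. Of 39 with a probe, 18 were tested and 21 did not pass the filter on dim probes. All 18 were detected on at least 1 miR-NC array, so their values do not read the onset of a silent gene. MAGEA6 and MAGEA10 were bright in the control, at mean log2 intensities of 10.49 and 10.29. The filter admits a gene detected on both miR-31 arrays alone, and none of the list entered in that way. Of the 18, 2 were lower and 0 higher at a limma unadjusted p under 0.05, against 2723 of all 10754 genes. Past the limma threshold, 1 was lower, 0 higher and 17 did not pass (median 0.09), against 5.24% lower and 2.43% higher over all genes. BRDT, a bromodomain protein of the testis, was at least 1.57-fold lower, as neither miR-31 array detected it (adjusted p = 0.0262), a call lost in 5 of 14 alternatives. It passed the filter only through the miR-NC arrays, so the filter fixed its direction, and with detection required on all 4 arrays the list held 0 lower genes (limma). MAGEA1 stood at -0.73 ± 0.24 (adjusted p = 0.118), with a second probe at -0.31. MGMT, a DNA repair enzyme, stood at 0.32 ± 0.16 (adjusted p = 0.279) and MAGEC2 at -0.46 ± 0.27 (adjusted p = 0.364), with a second probe at 0.067 (adjusted p = 0.942). GSTP1, a detoxifying enzyme often methylated in prostate cancer, stood at -0.33 ± 0.26 (adjusted p = 0.511).

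Genes of S phase were lower in the same arrays. This list, like the others, was chosen with earlier results of these data known, so its counts are a description. Of 16 tested S-phase comparators, 15 were lower and 0 higher at a limma unadjusted p under 0.05, against 2723 of all 10754 genes. Past the limma threshold, 14 were lower, 0 higher and 2 did not pass, against 5.24% lower and 2.43% higher over all genes. Their median log2 value was -1.42. With arrays aligned on their medians, MCM2 and CDC45 alone of the 14 kept their calls. UHRF1, picked for its fall, lay at -2.72, beyond that median, so its place is a description only. DNMT1, at -0.81, lay short of that median. How far the members' values go with the share of cells in S phase was not tested, and fewer cycling cells and less RNA per cell cannot be told apart in bulk RNA.

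**Figure D3:**
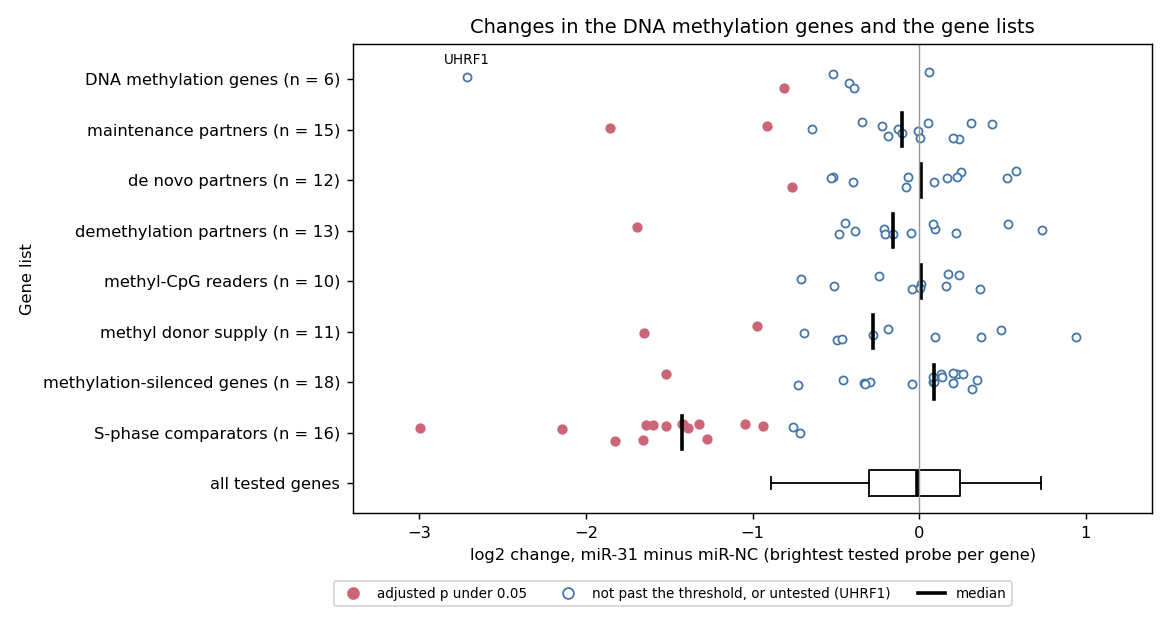
Log2 change, miR-31 minus miR-NC, at the brightest tested probe of each gene, for the 6 tested DNA methylation genes and 7 gene lists; filled points passed the threshold, black lines are list medians, and the box gives the quartiles of all 10754 genes with whiskers at the 5th and 95th percentiles. The S-phase comparators sit around -1.42, while the medians of the other lists lie between -0.28 and 0.09.

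The genes whose 4 array values, each centred on the gene's own mean, lay nearest to those of UHRF1 were CDK2, E2F2, MCM2, EXO1 and MCM10, at Euclidean distances of 0.14, 0.32, 0.33, 0.33 and 0.39 log2 units. Their log2 changes ran from -3.00 to -2.42. For DNMT1 the nearest were RLN2, CARM1, PRPS2, SCD and ARHGEF10, at distances of 0.02 to 0.05 and with changes of -0.86 to -0.80. Over 4 arrays in 2 groups the distance reads mostly the size of the change and the order of the repeats. MCM2, E2F2, EXO1, CDK2 and MCM10 are genes of DNA replication, repair and the cell cycle, and their likeness to UHRF1 was chosen by the same values that chose UHRF1.

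**Figure D4:**
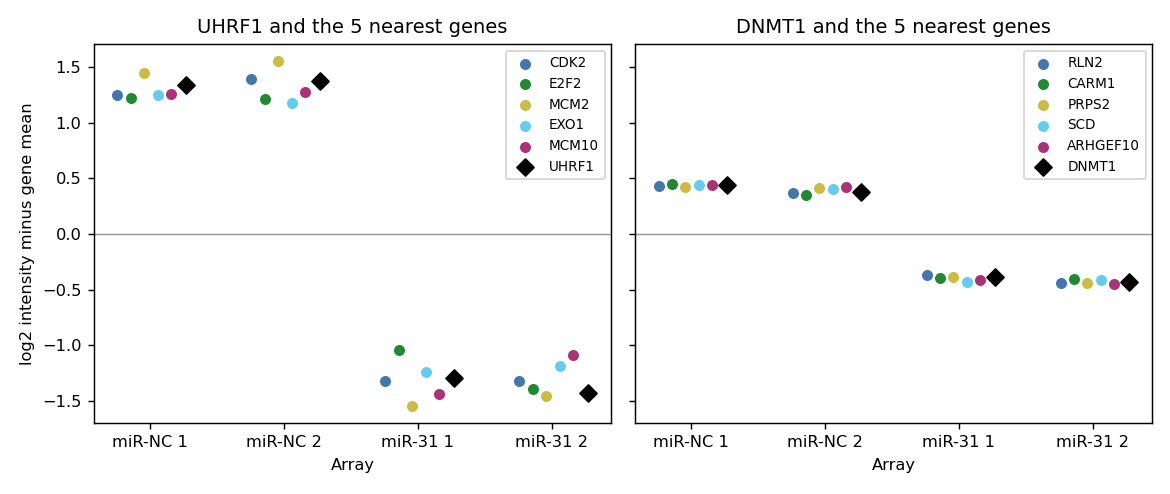
Normalized log2 intensity minus the gene's mean over the 4 arrays, for UHRF1 (left) and DNMT1 (right) as diamonds and for the 5 genes nearest to each as circles. UHRF1 lies at 1.34 and 1.37 in miR-NC and at -1.29 and -1.43 in miR-31, and DNMT1 at 0.44 and 0.38 against -0.39 and -0.43.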

How the data were processed

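RNA was profiled on Illumina bead arrays, 2 per group. The values used were signal intensities that the authors deposited without normalization. Beside each stood a score that the deposited header calls a detection p-value; it runs the other way, so detection p was taken as 1 minus it. The submitters' processing notes name BeadStudio, with no version or settings. The authors' normalized intensity values, linear with a common median of 14.3, served as an alternative, raised to a floor of 16 before log2.

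The steps from there used R 4.3.3 and limma 3.58.1 (neqc: normexp background, offset 16, quantile normalization, log2). Probes detected on 2 or more of the 4 arrays (p under 0.05), 18354 in all, entered the test. Group differences came from lmFit and eBayes, the latter with a trend on intensity (2 residual and 7.19 prior degrees of freedom), two-sided, with Benjamini-Hochberg adjustment over all tested probes and a threshold of 0.05. An exact permutation test of 2 against 2 cannot go below 0.333. The fit was tried on simulated data only with planted changes larger than the main values of every member but UHRF1. It therefore does not speak to calls of smaller size.

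Probes were named from the platform annotation, with symbols updated through Entrez identifiers; 30113 probes had 1 symbol, 8 several and 17110 none. Each gene was represented by its tested probe of highest mean log2 intensity. Probes not detected in miR-31 are given as "at least", against the higher of the lowest detected signal and the probe's own, per array. Members and lists were chosen with earlier results of these data known. Text names every member, up to 4 genes per list by smallest p, and the 5 nearest genes. HDAC1, CBX5, TDG, GSTP1, AHCY, MAGEA6 and MAGEA10 were added after their values were seen. The alternatives were other background, offset, normalization, filter, trend, threshold and probe summary, the authors' values, a replicate block, and each array left out. Replicate 1 deviations from the group means correlated at 0.22 between groups; with 2 pairs and no label of a shared batch, replicates were not taken as pairs.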

Additional observations from a re-analysis of the deposited data

How the results depend on the processing

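With 2 arrays per group, counts of calls depended on the processing more than the members' values did. Counts over 1.5 times apart from the 1132 probes (747 lower) and 824 genes past the threshold were 106 (45 lower) and 63 with arrays aligned on their medians, 359 (287) and 268 without a variance trend, 2536 (1328) and 1694 with the replicate block, and 2033 (1228) and 1433 at a threshold of 0.1. With 1 array left out they ran from 0 to 2085 probes (0 to 953 lower) and from 0 to 1332 genes; the highest counts came without miR-NC replicate 2 and the 0 counts without either miR-31 array. Calls among members other than UHRF1 numbered 0 with median alignment and without a variance trend, 2 with the mean of probes, and 0 to 1 with 1 array left out. UHRF1 moved to -2.04 with no background correction, -2.33 with an offset of 50 and -2.81 with the authors' values. DNMT1 lost its call at -0.89 with median alignment and at -0.81 without a variance trend, and with 1 array left out ranged from -0.85 to -0.78; HELLS gained one at -1.03 with the mean of probes. TET1 was -0.20 without miR-NC replicate 1 (-0.20 to 0.32 with 1 array left out). No other member changed direction or call at its brightest probe, but with no background correction HELLS moved from -0.39 to -0.21 and DNMT3B from -0.51 to -0.29, and the DNMT3B probe ILMN_2328977 ranged from -1.23 (authors' values) to -0.30 (no background correction). Genes of methyl donor supply numbered 4 lower and 1 higher with the replicate block. With the replicate block DNMT1 (-0.81, adjusted p = 0.0013) and the HELLS probe ILMN_2202423 (adjusted p = 0.00114) stayed past the threshold and the DNMT3B probe ILMN_1794692 joined them (0.0495). List medians near 0 changed sign: readers were -0.077 with median alignment, -0.018 with the mean of probes and -0.042 to 0.13 with 1 array left out; de novo partners were -9.9e-06 with an offset of 50, -0.24 under the stricter filter (p under 0.01 on all 4 arrays), and -0.046 to 0.076 with 1 array left out; silenced genes were -0.077 to 0.19 with 1 array left out. Of the other recomputed values, 280 kept their call or size, 59 counts or values moved, 2 gained and 3 lost a call. The cause of these shifts was not tested. TET1 had no value at the stricter filter. TET1, the second HELLS probe and 1 DNMT3B probe were not above background on 1 or both miR-31 arrays.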
